A study of Mus musculus with 20 samples.

Results

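The regions described here are stretches of the mouse genome that had a peak of open chromatin in Lrig1 GL Sca1+ epidermal cells at all 3 sampled points after wounding and no peak in homeostasis. They were chosen by peak presence: the peaks of the 10 deposited lists were merged wherever they shared at least 1 bp, and a merged region was a member if peaks from 1 week after the first wound, 8 weeks after the first wound and 1 week after the second wound overlapped it while no homeostasis peak did. Of 101406 merged regions (union regions in the plots), 3324 were members, or 3.28%. Because membership was read from these 4 lists, presence and absence in them is a description of how the set was made. The list of vehicle-treated epidermis took no part in the choice, and it held 3247 of the members (97.7%, Wilson 95% interval 97.1 to 98.1).

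ATAC-seq uses the Tn5 transposase to insert sequencing adapters into DNA that is not covered by nucleosomes, so a peak marks accessible chromatin. The cells came from mice of the genotype Lrig1CreER/Rosa-TdTomato, in which a Cre recombinase under control of Lrig1 marks cells that express this upper follicle stem cell gene, and they were sorted for the surface protein Sca1, the product of Ly6a. The 10 groups, with 2 libraries each, were homeostasis, 1 week and 8 weeks after a first wound, 1 week after a second wound, epidermis given vehicle, epidermis given PRT4165 (a small molecule that blocks histone ubiquitination by the Polycomb complex PRC1), epidermis given UVB, wounded epidermis given UVB, and 2 cultures of cells, which the titles place 8 weeks after a first wound, taken from a control (non-memory) region and from a distal memory region. All 10 groups share the genotype, the tissue (tail epidermis) and the sort. Which part of the epidermis the sorted cells lay in was not tested. No label says whether the 2 libraries of a group came from separate animals. Each group has 1 peak list made from both libraries, so the spread between replicates cannot be computed, no comparison below carries a test, and the intervals cover counting error only.

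Epidermal cells that have lived through an injury can keep some of the chromatin opened by it, a state called wound memory, and later respond faster to a new challenge. Regions that open at a distance from genes are often enhancers, where transcription factors such as AP-1 act, while openings at start sites mark promoters. Lrig1 cells of the upper hair follicle normally feed the upper follicle and sebaceous gland and move into the interfollicular epidermis when the skin is wounded.

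The sorted cell type was checked against marker genes by asking for a peak within 1 kb of a gene end or start site. The keratinocyte genes Krt14 and Krt5 and the sort genes Lrig1 and Ly6a had such a peak in all 10 lists, and Trp63 only in the vehicle list. Cd3e, Cd3g and Cd2 of T cells, Cdh5 and Pecam1 of endothelium and Cd207 of Langerhans cells had none in any list, nor had Col1a2 of fibroblasts, Tyr and Sox10 of melanocytes or Krt20 of Merkel cells. Col1a1 of fibroblasts, Mitf of melanocytes and Spi1 of myeloid cells had one in all 10 lists, and Dct of melanocytes in the 8 lists of fresh epidermis. Dcn of fibroblasts had one in 5 lists and Pdgfra in vehicle only. Kdr of endothelium and Csf1r of myeloid cells had one in both cultured lists only. Of the Merkel cell genes, Piezo2 had one in 7 lists and Atoh1 in 4. The part that other cell types play in the members was not tested.

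A minority of members lay over promoters, and the sequences of 6 are shown because they are the places where the set can be read as gene starts. RefSeq start windows (GRCm38.p6, the assembly also called mm10; 250 bases before a start site and 50 after it) were searched for 20 motifs on both strands, and 244 members overlapped 296 windows of 263 genes, out of 32817 windows of 300 bases each. The first 3 sequences belong to the highest-ranked promoter members and the next 3 to genes on the lists used below. Gm36298 is a predicted gene, Zfp59 encodes a zinc finger protein, Mef2b a MADS-box transcription factor, Hopx a homeodomain-only protein that marks follicle stem cells, Lgr6 an R-spondin receptor of the upper follicle, and Hoxd10 a Hox factor of posterior body regions. Each line gives the 250 bases before the start site, 5′ to 3′ on the strand of the gene. Capitals mark matches, on either strand, to the 4 motifs that occur in them: CCAAT (bound by NFY), CCGGAAGT (ETS factors), CACGTG (E-box) and GGGCGGGG (KLF and SP factors).
Gm36298 (chr13:62653215-62653464, minus strand): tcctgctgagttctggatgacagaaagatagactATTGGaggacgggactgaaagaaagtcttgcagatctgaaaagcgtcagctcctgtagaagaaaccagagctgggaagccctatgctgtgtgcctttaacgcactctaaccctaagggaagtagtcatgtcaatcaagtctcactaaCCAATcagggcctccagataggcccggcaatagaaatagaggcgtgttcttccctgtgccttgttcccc
Zfp59 (chr7:27838334-27838583, plus strand): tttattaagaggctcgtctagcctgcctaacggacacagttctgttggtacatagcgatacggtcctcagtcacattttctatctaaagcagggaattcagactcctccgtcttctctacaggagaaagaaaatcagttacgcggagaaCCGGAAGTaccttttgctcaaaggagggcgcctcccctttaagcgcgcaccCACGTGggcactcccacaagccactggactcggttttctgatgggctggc
Mef2b (chr8:70152511-70152760, plus strand): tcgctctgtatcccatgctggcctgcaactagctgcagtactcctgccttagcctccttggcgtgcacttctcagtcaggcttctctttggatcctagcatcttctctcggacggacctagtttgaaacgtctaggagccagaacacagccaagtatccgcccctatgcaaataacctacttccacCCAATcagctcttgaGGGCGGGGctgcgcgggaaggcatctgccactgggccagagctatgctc
Hopx (chr5:77115124-77115373, minus strand): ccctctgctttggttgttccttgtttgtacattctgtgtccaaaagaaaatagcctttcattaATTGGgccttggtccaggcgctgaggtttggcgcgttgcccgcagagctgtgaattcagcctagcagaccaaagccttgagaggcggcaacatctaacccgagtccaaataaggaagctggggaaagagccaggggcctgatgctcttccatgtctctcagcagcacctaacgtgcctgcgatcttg
Lgr6 (chr1:135105277-135105526, minus strand): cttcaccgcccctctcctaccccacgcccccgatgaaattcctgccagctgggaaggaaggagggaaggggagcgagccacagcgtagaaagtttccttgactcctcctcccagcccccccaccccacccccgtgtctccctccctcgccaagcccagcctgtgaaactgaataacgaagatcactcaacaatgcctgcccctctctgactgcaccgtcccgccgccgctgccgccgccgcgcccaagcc
Hoxd10 (chr2:74691641-74691890, plus strand): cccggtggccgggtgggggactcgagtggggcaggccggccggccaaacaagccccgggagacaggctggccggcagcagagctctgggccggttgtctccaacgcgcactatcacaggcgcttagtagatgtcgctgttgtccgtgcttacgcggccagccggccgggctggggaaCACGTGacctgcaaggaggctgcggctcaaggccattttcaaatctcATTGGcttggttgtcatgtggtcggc

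The peaks covered all 300 bases of the start window of Gm36298, Mef2b, Hopx, Lgr6 and Hoxd10, and 262 of the 300 bases for Zfp59. Zfp59 carried an ETS match and an E-box within its upstream bases, Mef2b a KLF and SP match beside a CCAAT box, and Gm36298 a CCAAT match on each strand. The Lgr6 upstream bases held none of the searched motifs, which says only that those letters are not in this stretch. Over all 296 windows, CCAAT was found in 28.4% (23.5 to 33.8), against 39.0% (38.1 to 40) of windows opened in all 4 wound-course lists and 37.4% of all windows. The ETS letters were found in 3.04% (1.61 to 5.68), against 9.28% (8.74 to 9.85) of windows opened in all 4 lists and 3.89% of all windows. For both motifs the interval of the members lay below that of the windows open throughout, and for both it overlapped the interval of windows over regions absent only at 8 weeks, at 30% (26.5 to 33.9) for CCAAT and 6.66% (4.91 to 8.97) for ETS. GGGCGGGG stood in 26.7% of the windows (22.0 to 32.0), against 35.4% (34.5 to 36.3) of windows open throughout and 17.6% of all windows. The interval of the members lay below that of windows open throughout. It overlapped that of windows over regions absent only at 8 weeks, at 33.3% (29.6 to 37.2). The AP-1 letters TGAGTCA stood in 6.08% (3.88 to 9.41), against 5.20% of all windows and 3.77% (3.43 to 4.15) of windows open throughout, whose intervals overlapped. Members thus covered promoters with fewer CCAAT and ETS matches than the promoters open in all 4 lists. Median GC content was 59.3% in the windows over members, 62% in those open throughout and 52.7% in all windows.

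Regions absent from exactly 1 of the 4 wound-course lists served as the comparison, because each of them is also open at 3 of the 4 points. There were 8075 such regions: 3324 absent only in homeostasis (the members, 41.2%), 3199 absent only at 8 weeks, 1274 absent only after the second wound and 278 absent only at 1 week after the first wound. These numbers depend on the lists used: with the 4 lists brought to equal length there were 2183 members, 1967 regions absent only at 8 weeks, 1209 absent only after the second wound and 1632 absent only at 1 week. With the strongest 50% of the wound lists against the whole homeostasis list there were 511 members and 2939 regions absent only at 8 weeks. Among all merged regions the regions open at all 4 points numbered 26014, or 25.7%.

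**Figure D1:**
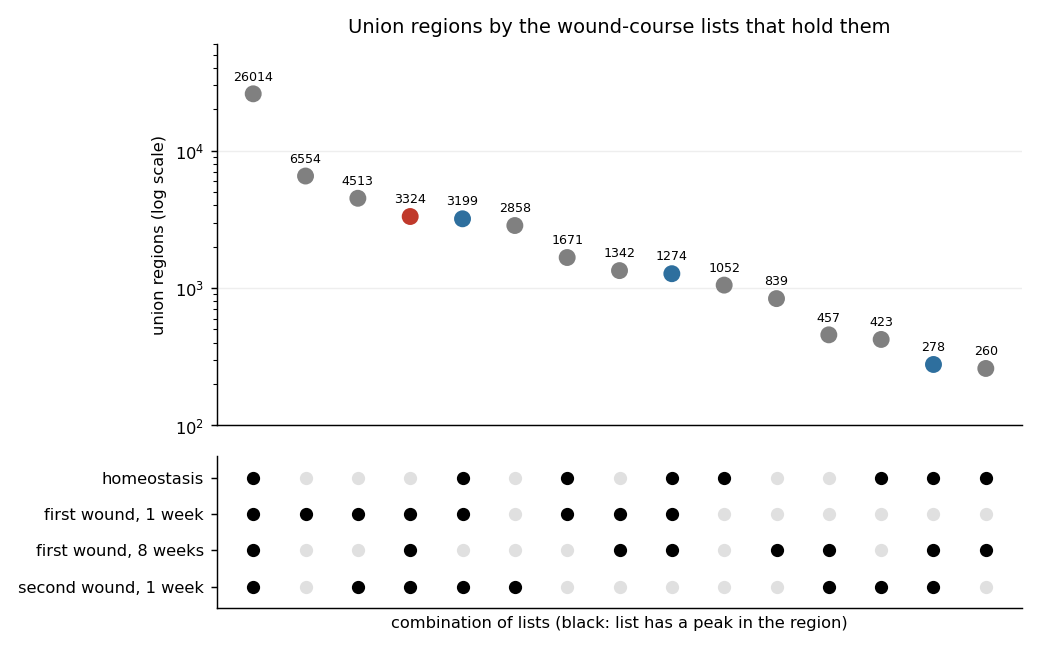
Number of merged regions (vertical axis, log scale) for each combination of the 4 wound-course lists that hold a peak; black dots below name the lists. The red point marks the 3324 members, which lack only homeostasis, and the blue points the sets of 3199, 1274 and 278 regions that lack another single list.

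The lists differ in length. The homeostasis list overlapped 34171 merged regions, the list of 1 week after the first wound 47891, that of 8 weeks 33788 and that of the second wound 41066. The 2 shortest lists are the ones whose absence defines the 2 larger sets, and the part of list length in this was not tested beyond the equal-length counts. Of the regions in the 1-week list and not in homeostasis (15733, or 15.5% of all merged regions), members were 21.1%. Of those at 8 weeks and not in homeostasis (5962, or 5.88%), members were 55.8%, and of those after the second wound (11152, or 11%), 29.8%. Most regions seen at 8 weeks and not in homeostasis were therefore also seen at both other wound points. Most of those seen at 1 week and not in homeostasis were not. The 8-week list is the shortest of the 4 and the 1-week list the longest. Regions in all 3 wound lists numbered 26014 with a homeostasis peak and 3324 without one, out of 33788 in the 8-week list and 47891 in the 1-week list. The part of list length in this contrast was not tested.

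Members near the edge of the rule were few. The member nearest to a homeostasis peak lay 33 bp from it, 19 lay under 100 bp away, and 168 (5.05%) under 500 bp away. The median distance to the nearest homeostasis peak was 9.66 kb, and 1701 members (51.2%) had one within 10 kb. On the other side of the rule, the smallest homeostasis overlap in a region of all 4 lists was 177 bp, and 30 such regions had less than 20% of their length covered in homeostasis, against a median of 78.8%. Most members were thus separate from homeostasis peaks and not split off from one.

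The vehicle list is the second list of epidermis whose labels name neither a wound nor an active treatment, and 97.7% of members had a peak there. The PRT4165 list held 96.8% (96.2 to 97.4), the UVB list 98.7% (98.3 to 99.0) and the list of wound with UVB 95.8% (95.1 to 96.4). All 4 of these lists are longer than the wound-course lists: vehicle overlapped 68073 merged regions and UVB 71677. Over all merged regions the same lists held 67.1%, 65.3%, 70.7% and 63.5%. Vehicle held 98.6% (98.2 to 99.0) of the regions absent only at 8 weeks and 99.5% (98.9 to 99.7) of those absent only after the second wound, slightly more than of the members, with intervals that did not overlap. It held 97.1% (94.4 to 98.5) of those absent only at 1 week. No member was confined to the 3 wound lists: 0 of 3324 lacked all 6 other lists (upper Wilson bound 0.115%). Only 1 of the 6 lists held 6 members (0.181%, 0.0828 to 0.393). Of the 278 regions absent only at 1 week, 1 lacked all 6 lists (0.36%, 0.0635 to 2.01) and 2 were held by only 1 (0.719%, 0.198 to 2.58). These intervals overlapped those of the members, so the low counts are not particular to the members.

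**Figure D2:**
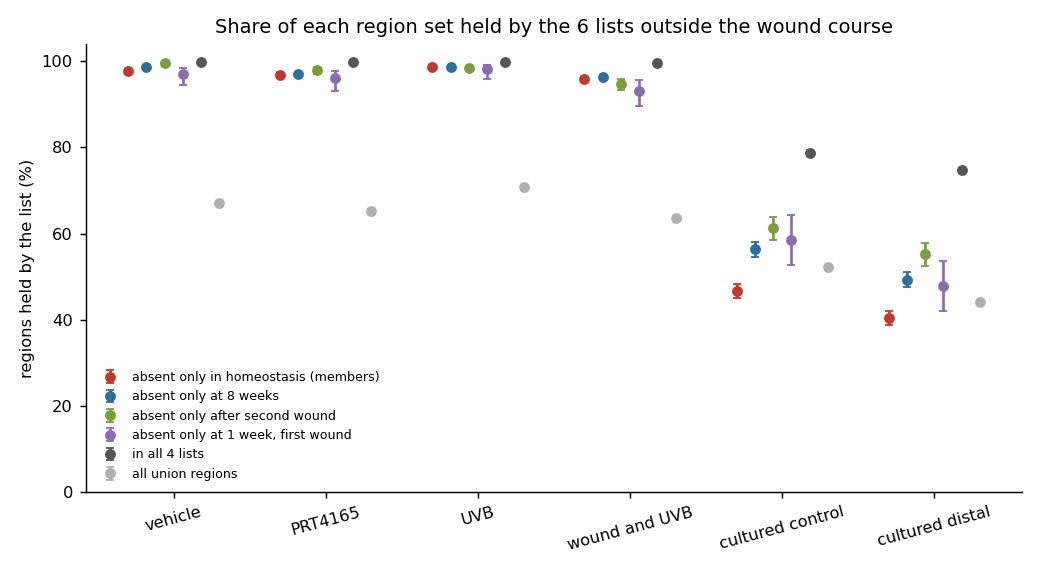
Share of each region set (percent, vertical axis) with a peak in each of the 6 lists outside the wound course; points are shares and bars Wilson 95% intervals, often smaller than the point. Members reach 95.8 to 98.7% in the 4 lists from fresh epidermis and 46.7 and 40.3% in the 2 cultured lists, where they lie below the other sets that miss 1 list.

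The cultured cells differed from fresh epidermis. The cultured control list held 1551 members (46.7%, 45.0 to 48.4) and the cultured distal list 1340 (40.3%, 38.7 to 42.0), against 52.2% and 44.0% of all merged regions. For regions absent only at 8 weeks the shares were 56.3% (54.5 to 58.0) and 49.3% (47.6 to 51.0), and for regions open at all 4 points 78.8% and 74.7%. The members were thus held less by both cultures than each of these sets, with intervals that did not overlap. Regions absent only at 1 week after the first wound, a set of 278, were held at 58.6% (52.8 to 64.3) and 47.8% (42.0 to 53.7), and the last interval meets that of the members. The members split into 1252 held by both cultures (37.7%), 299 by the control culture only (9.0%), 88 by the distal culture only (2.65%) and 1685 by neither (50.7%). Of the 3199 regions absent only at 8 weeks, 1502 were held by both cultures and 1324 by neither. Of the 1274 absent only after the second wound, 655 were held by both and 446 by neither. The most common pattern outside the wound course was presence in all 4 fresh lists and neither culture, in 1481 members (44.6%). This pattern was found in 37.2% of regions absent only at 8 weeks and 33.1% of those absent only at 1 week. The list of the distal memory region held fewer members than that of the control region, and it was also the shorter list, with 44621 merged regions against 52946.

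Distance from genes moved with this split. Members within 1 kb of a gene end or start site were held by the control culture at 71.5% (66.7 to 75.8) and by the distal culture at 62.4% (57.4 to 67.2). Members farther away were held at 43.5% (41.7 to 45.3) and 37.5% (35.8 to 39.3). In the regions absent only at 8 weeks the same shares were 82.9% and 77.9% near genes and 49.7% and 42.2% away from them, so the members were lower in both classes of distance. Of the members in both cultures 18.1% lay within 1 kb, against 5.93% of those in neither. The other sets showed this contrast as well. The shares were 31.9% and 7.1% for regions absent only at 8 weeks, and 25.5% and 8.3% for those absent only after the second wound. For regions open at all 4 points they were 47.3% and 4.68%.

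The authors' signal value, which the peak format gives for each peak and whose scaling is not stated in the sources used here, was low to middling for most members. In the 1-week list the members ranged from 2.99 to 23.2 with a median of 8.56. At 8 weeks they ranged from 3.17 to 21.4 with a median of 7.75, and after the second wound from 2.88 to 21.6 with a median of 8.49. Lists of different length cannot be set against each other on this scale, so each region was ranked within its list, from 0 for the weakest to 100 for the strongest. The median member stood at percentile 45.6 at 1 week, 30.5 at 8 weeks and 39.9 after the second wound. At 8 weeks only 23.9% of members stood above the median of their list. Regions open in all 4 lists ranked higher in each: their medians were 69.3, 60.1 and 65.2. Sets that miss 1 other list had medians equal to or below those of the members. Regions absent only at 8 weeks stood at 42.4 at 1 week and 34.4 after the second wound. Those absent only after the second wound stood at 40.6 at 1 week and 30.5 at 8 weeks. Those absent only at 1 week stood at 25.5 at 8 weeks and 28.7 after the second wound. The low ranks are therefore not particular to the members.

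In the 4 other lists of fresh epidermis, each ranked on its own, the middle member stood above the middle of the list. Its percentile was 58.0 in vehicle, 56.1 with PRT4165, 59.3 with UVB and 56.0 in wound with UVB. In the cultured lists the members that were present had medians of 47.1 and 43.2. The lists hold different numbers of regions, so these ranks describe a place within each list and not a change between lists. Regions absent only at 8 weeks had medians of 57.5 in vehicle and 57.1 in UVB, close to those of the members.

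**Figure D3:**
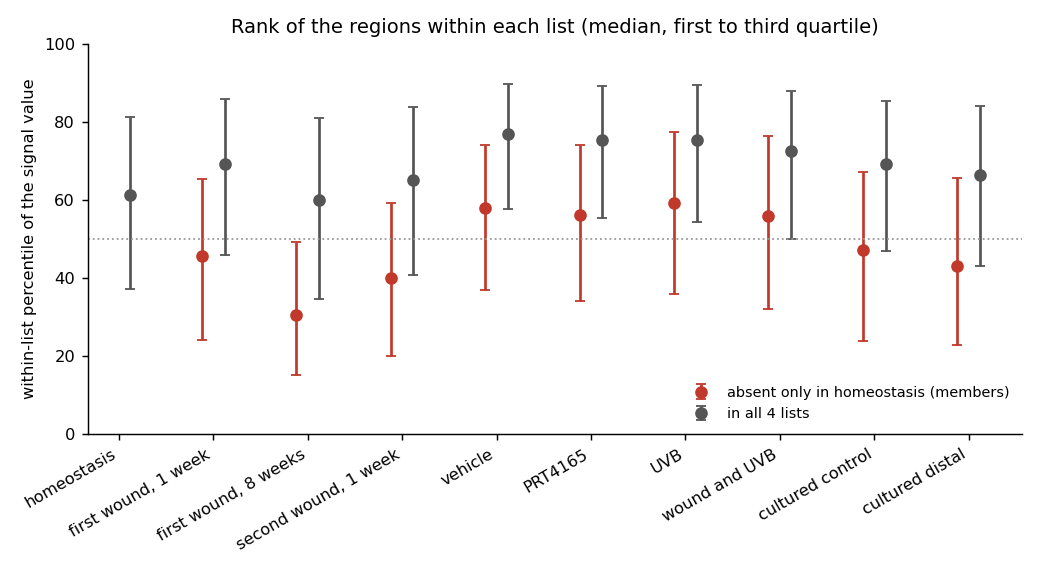
Within-list percentile of the signal value (vertical axis, 0 weakest, 100 strongest) in each of the 10 lists; points are medians and bars run from the first to the third quartile, for members in red and regions of all 4 wound-course lists in grey. Members sit at medians of 45.6, 30.5 and 39.9 in the 3 wound lists, below the grey points in all 9 lists that hold them.

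The strongest member in all 3 wound lists lay inside Mbtd1, which encodes a chromatin reader with malignant brain tumour repeats, at chr11:93940603-93941448. Its signal value was 23.2 at 1 week, 21.4 at 8 weeks and 21.6 after the second wound, and 25.4 in vehicle, 27.5 with PRT4165, 30.5 with UVB and 34.1 in wound with UVB. It was also held by both cultures, at 23.0 and 23.2, and the nearest homeostasis peak was 13.4 kb away. It stood at percentiles 99.6, 99.0 and 98.7 of the wound lists, near the top of each. The next members were inside Galnt7, a glycosyltransferase gene (chr8:57569056-57569935, with 20.3, 18.4 and 18.3 in the wound lists and 18.6 in vehicle), and inside Dennd1a, which encodes a regulator of membrane traffic (chr2:38168626-38169181, with 19.6, 16.9 and 20.1, and 19.1 in vehicle). Both were held by all 4 fresh lists and by neither culture. A region 140 kb from Gmds, an enzyme of fucose synthesis (chr13:32478898-32479667), had values of 18.4, 16.5 and 21.0 in the wound lists and stood in all 6 others. A region 688 kb from Cited2, a transcriptional coregulator (chr10:17034801-17035467), had 20.6, 19.3 and 15.1, with 27.9 in vehicle and 28.3 in the control culture. The strongest members thus included both kinds, those that the cultures held and those that they lacked.

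Members lay away from genes more than most of the comparison sets did. Within 1 kb of a gene end or listed start site were 375 members (11.3%, 10.3 to 12.4), against 19.8% (18.4 to 21.2) of regions absent only at 8 weeks, 36.5% of regions open at all 4 points and 16.2% of all merged regions. Regions absent only after the second wound stood at 18.0% (16.0 to 20.2), and those absent only at 1 week at 14.4% (10.7 to 19.0), whose interval overlapped that of the members. A further 27.0% of members lay 1 to 10 kb away, 48.9% lay 10 to 100 kb away and 12.8% lay farther. The median distance was 16.8 kb, against 11.7 kb for regions absent only at 8 weeks and 6.30 kb for regions open throughout. Members inside a gene and over 1 kb from its ends made up 46.5% (44.8 to 48.2), against 38.2% (36.5 to 39.9) of those absent only at 8 weeks, 41.1% (38.4 to 43.8) of those absent only after the second wound, 48.2% (42.4 to 54.1) of those absent only at 1 week and 41.9% of all merged regions. The median width of a member was 760 bp, with a range of 230 to 2515 bp. Members occurred on every autosome and on the X chromosome, where 52 lay (2.33% of the merged regions of that chromosome), and none on the Y. Chromosome 15 had the highest share, 189 of 4405 merged regions (4.29%), and chromosome 3 the lowest among autosomes, at 2.36%.

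By gene span, or by the nearest gene end within 100 kb, 3033 members were assigned to 2404 protein-coding genes. A single member was assigned to 1948 genes, a pair to 331, and 3 or more to 125. Regions absent only at 8 weeks were assigned to 2416 genes, and 678 genes had both kinds (28.2% of the genes with a member and 28.1% of those 2416). Over all 16748 genes with a merged region, 14.4% had a region absent only at 8 weeks. Of the 125 genes with 3 or more members, 57 had one (45.6%). Merged regions assigned to a gene were members in 3.3% of cases over all genes, and long genes with many regions collect members by number alone, so each count below is given with the number of merged regions of the gene.

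Arhgef28, which encodes a guanine nucleotide exchange factor, had the most members, 7 of 44 merged regions (15.9%). Of the 4 members outside the gene, all beyond its lower-coordinate end, that at chr13:97876194-97876929 was the strongest, with 14.0 at 1 week, 9.69 at 8 weeks and 13.2 after the second wound, and 10.7 in vehicle. The region at chr13:97808914-97809626, which lies 89.2 kb from the gene, had 10.8, 8.99 and 6.66. Inside the gene, the region at chr13:98183018-98183826 had 10.5, 9.91 and 8.84, and 11.0 in vehicle. None of the 7 lay within 1 kb of a start site, all 7 were held by vehicle, 2 by the control culture and 1 by the distal culture. Another 12 of its regions were open in all 4 wound-course lists.

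Kalrn, which encodes a guanine nucleotide exchange factor, had 5 members of 42 regions. Its strongest member, at chr16:34162867-34163590, had 17.6, 15 and 19.0 in the wound lists and 19.2 in vehicle, 27.0 with UVB and no peak in either culture. Its member at chr16:34389562-34390399 had 15, 9.53 and 15.7 and was held by all 6 other lists. Tiam1, an activator of Rac1, had 5 of 63 (7.94%), all in vehicle. Sik3, a salt-inducible kinase, had 6 of 30 (20%), all inside the gene, of which the highest-ranked, at chr9:46083069-46084117, had 8.88, 8.60 and 9.51 and was held by all 6 other lists. Samd5 had 5 of 38, all inside the gene, and none was held by a culture. Its region at chr10:9416398-9417214 had 16.5, 10.8 and 13.4, and 13.2 in vehicle. The other genes among the 12 with the most members were Zbtb20, a zinc finger repressor (5 of 32), Sash1, a scaffold protein (5 of 45), Macrod2, an ADP-ribose hydrolase (5 of 109, 4.59%), Tbc1d1, a Rab GTPase-activating protein (5 of 40), Zmiz1, a coregulator of transcription (5 of 56, 8.93%), Adk, adenosine kinase (4 of 24), and Septin9, a cytoskeletal GTPase (4 of 35). Apart from 1 Zmiz1 region, the members of these 12 genes were all held by vehicle.

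**Figure D4:**
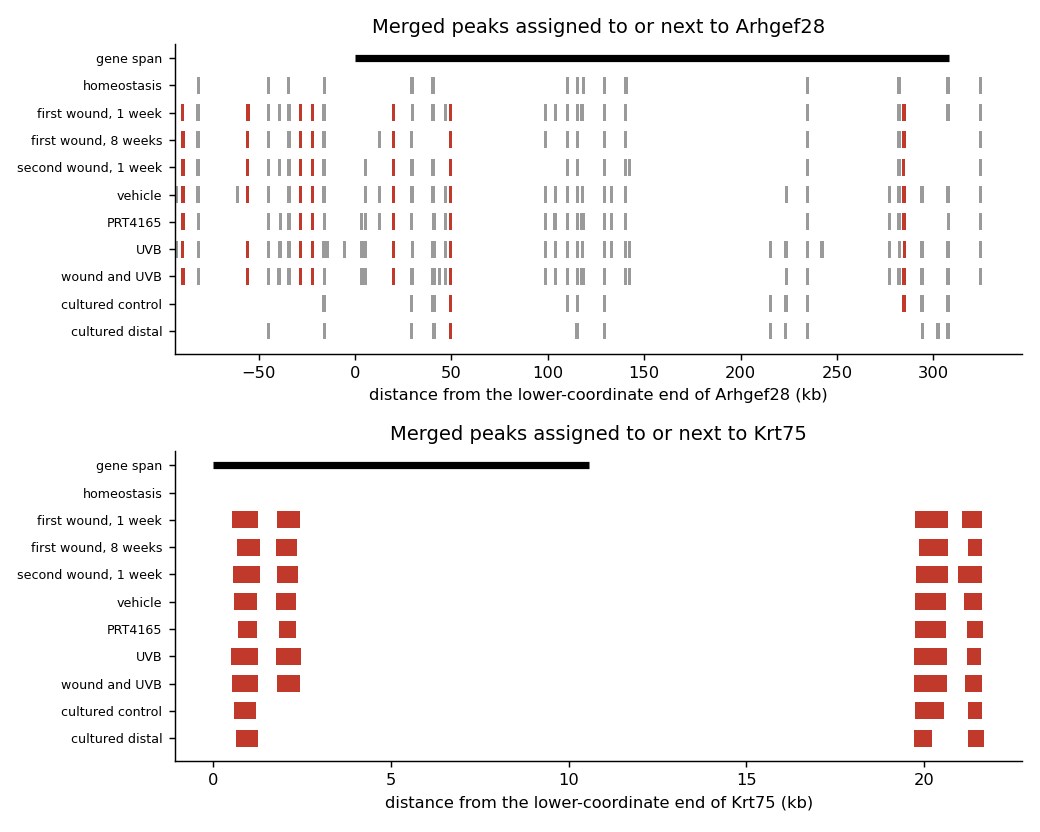
Merged peaks of the 10 lists around Arhgef28 and Krt75; the horizontal axis is the distance in kb from the lower-coordinate end of the gene, each row is a list, the black bar is the gene span, red peaks belong to members and grey peaks to other regions, and peaks at Arhgef28 are drawn with a minimum width. The 7 red positions at Arhgef28 and the 4 at Krt75 are empty in the homeostasis row and filled in vehicle.

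Among genes with at least 6 merged regions, the share of members was highest at Sod3 and Gadd45b, with 3 of 7 each (42.9%). Sod3 encodes the extracellular superoxide dismutase. Its member at chr5:52335552-52336202 had 8.65, 8.99 and 8.16 in the wound lists and 14.0 in vehicle, and that inside the gene, at chr5:52365857-52367143, had 5.80, 6.45 and 6.27, and 9.25 in vehicle. Gadd45b encodes a stress sensor induced by DNA damage and TGF-beta. Its 3 members were among the weakest peaks: the region at chr10:80933181-80934033 had 4.03, 4.20 and 3.93, and no Gadd45b member ranked above percentile 5.33 in any wound list. Trappc10, of a vesicle tethering complex, and Ramp1, part of the receptor for the neuropeptide CGRP, had 3 of 9 each (33.3%). Ramp1 had a member at its start, at chr1:91178871-91180460, with 6.32, 7.05 and 7.24, and a stronger one inside the gene, at chr1:91191820-91192811, with 11.2, 12.1 and 9.49. Polr3b, a subunit of RNA polymerase III, and Pigv, an enzyme of glycolipid anchor synthesis, had 2 of 6 each.

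Members were sometimes neighbours. Of the 3324, 985 (29.6%) had another member within 50 kb, the same share as among regions absent only at 8 weeks. There were 27 runs of 3 or more members with steps of at most 20 kb, against 21 in that set. The longest runs held 4 members each, at Mical3, at Krt80 and at Krt75. Mical3 encodes an actin-oxidising enzyme, and its 4 members inside the gene were of low rank, the highest-ranked at chr6:121049922-121050322 with 6.93, 6.14 and 9. All 4 were in vehicle, and no homeostasis region lay in the run.

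The keratin run at Krt75 stood out in that every merged region assigned to the gene was a member. Krt75 encodes a keratin of the companion layer of the hair follicle, and it was the only gene with at least 3 merged regions for which this held. The region at chr15:101563838-101564643 inside the gene had 9.22, 8.03 and 12.1 in the wound lists, 11.4 in vehicle and 6.42 and 6.24 in the cultures. The next, at chr15:101565092-101565805, had 6.18, 5.41 and 5.37, 5.77 in vehicle, and was absent from both cultures. Beyond the gene, the region at chr15:101583060-101584011 had 6.42, 6.92 and 6.79, and that at chr15:101584313-101585030 had 8.22, 6.24 and 10.5. No list but homeostasis and the 2 cultures lacked any of the 4. Krt80, a keratin of differentiating cells, had 4 members of 20 regions, all in every list but homeostasis, led by chr15:101354028-101354649 with 7.88, 8.14 and 10.2. Krt79, a keratin of the upper follicle and sebaceous duct, had 2 of 6, and no merged region of Krt79 was in the homeostasis list. Its member inside the gene, at chr15:101932905-101933686, had 6.41, 6.32 and 6.96, and 6.79 in vehicle.

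The S100 genes, which encode alarmins raised in inflamed epidermis, had a run of 3 members at S100a7a and S100a8 on chromosome 3. The region at chr3:90638530-90639377 had 15.8 at 1 week, 7.56 at 8 weeks and 8.92 after the second wound, and ranked at percentiles 91.7, 28.0 and 44.9. The region inside S100a7a, at chr3:90652866-90653371, had 11.1, 10.3 and 9.22, and that near S100a8, at chr3:90664170-90664712, had 6.80, 8.86 and 6.44. All 3 were held by all 6 other lists, and none of the 6 merged regions in the run was in homeostasis. Further runs of 3 lay at Cxcl14, a chemokine of the epidermis, at Nfix, a transcription factor of follicle stem cells, at Sox15, at Acvr1b, an activin receptor, and at Bmp7.

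Genes of 26 lists (pathways, follicle compartments, other cell types) were then counted. The lists hold 496 genes, of which 490 were found in the gene table, and 131 of them had at least 1 member, 193 members of 4750 merged regions in all. All but 1 of the members on lists were held by vehicle, the exception lying 36.8 kb from Id3, a target of BMP signalling (7.59, 7.76 and 8.58 in the wound lists).

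**Figure D5:**
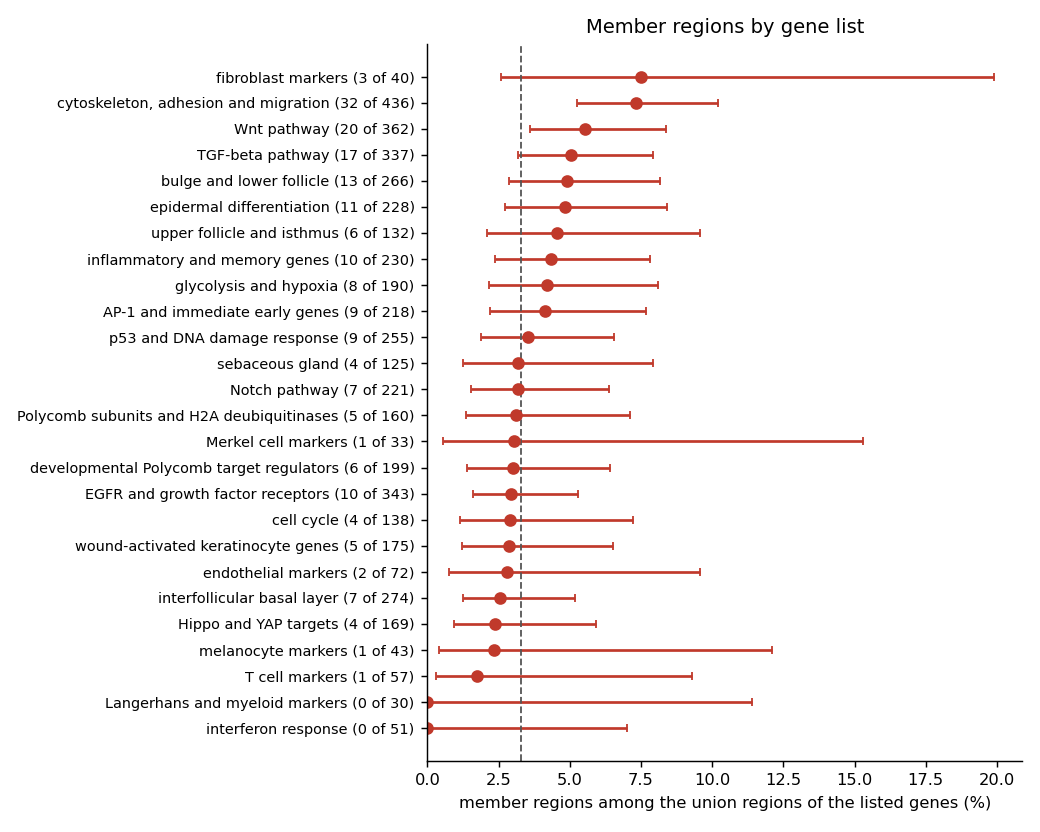
Share of members among the merged regions assigned to the genes of each list (percent, horizontal axis), with Wilson 95% intervals as bars and the counts in brackets; the dashed line marks the share over all assigned regions, 3.3%. Most intervals cross the line, and those of the cytoskeleton and Wnt lists lie above it.

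The cytoskeleton, adhesion and migration list had 32 members of 436 regions (7.34%, 5.25 to 10.2), in 12 of its 25 genes, and 10 regions absent only at 8 weeks. Arhgef28, Kalrn and Farp1 were put on this list with earlier results of these data in view; without them it had 16 of 331 (4.83%, 3 to 7.71), an interval that includes 3.3%. Farp1, an exchange factor with a FERM domain, had 4 of 19, among them chr14:121136950-121138251 with 12.4, 13.9 and 7.42, the highest of the 4 in both first-wound lists. Ptk2, which encodes focal adhesion kinase, had 3 of 15, among them chr15:73431362-73432062, 7.96 kb from the gene end, with 10.1, 10.3 and 9.34 and a place in all 6 other lists. Vcl, encoding vinculin, had 2 of 13, with 14.4, 9.89 and 13.4 at chr14:20902843-20903718. Rac1 had 2 of 8, both inside the gene, and Tns3, encoding a tensin, 3 of 49.

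The Wnt list had 20 members of 362 regions (5.52%, 3.6 to 8.38) in 12 of 30 genes, and receptor genes led it. The same genes had 20 regions absent only at 8 weeks, so the count is not particular to the members. Lrp6 and Lrp5 encode the coreceptors that pass the Wnt signal to the cell interior. Lrp6 had 3 of 12, all inside the gene: chr6:134500617-134501200 had 14.9, 15.8 and 14.7 in the wound lists and 21.4 in vehicle, chr6:134494781-134495553 had 12.6, 12.3 and 12.7, and chr6:134472945-134473811 had 12.4, 9.80 and 10.8. Each of the 3 stood above the median of each wound list. Lrp5 had 3 of 22, the strongest at chr19:3654704-3655266 with 10.3, 10.1 and 11.2, and another 0.439 kb from the gene end with 7.04, 6.25 and 8.08. Lgr4, an R-spondin receptor, had 3 of 20, and Ror2, a receptor for Wnt5a, had 2 of 29, with 16.5, 9.11 and 13.8 at chr13:53211674-53212548. Fzd7, a Frizzled receptor, had 2 of 17. Among ligands Wnt7b, Wnt5a and Wnt3a had 1 each, as did the intracellular genes Ctnnb1, encoding beta-catenin, Axin2, an inhibitor of the pathway, and Tcf7.

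The TGF-beta list had 17 members of 337 regions (5.04%, 3.17 to 7.93) in 10 of 22 genes. The ligand gene Bmp7 had 4 of 35 and Tgfbr3, the betaglycan coreceptor, 4 of 35. At Bmp7 the member at chr2:172839250-172839939, 28.5 kb from the gene, had 9.72, 6.77 and 9.12 and 10.1 in vehicle. The strongest at Tgfbr3 was chr5:107294978-107296061 with 7.89, 8.86 and 7.24, held by all 6 other lists. Ltbp1, which stores latent TGF-beta in the matrix, had 2 of 30, while Bmpr1a, Tgfbr2, Smad3 and Smad6 had 1 each.

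Lists of follicle and epidermal compartments lay between 2.55% and 4.89%. The bulge and lower follicle list had 13 of 266 (4.89%, 2.88 to 8.18), of which Krt75 gave 4 and Nfib, a transcription factor of follicle stem cells, 3. The upper follicle list had 6 of 132 (4.55%, 2.10 to 9.56): besides Krt79 these were 2 at Fst, the activin antagonist follistatin, and 1 each at Gata6 and Lgr6. The Lgr6 member covers the start printed above, at chr1:135104892-135105626, with 7.04, 6.84 and 5.82, 9 in vehicle, and no peak in either culture. The epidermal differentiation list had 11 of 228 (4.82%, 2.72 to 8.43), and the member at the Hopx start, at chr5:77114505-77115715, had 11.9, 10.3 and 10.3 and was in every list but homeostasis. Grhl3, a factor of barrier formation, had 2 of 20, and Krt1, the suprabasal keratin, 1 of 4. The interfollicular basal list had 7 of 274 (2.55%, 1.24 to 5.18), with 2 of 10 at Lamb3, a laminin chain, and 2 of 41 at Cd44.

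Inflammatory, stress and growth factor lists did not stand apart from the overall share. The inflammatory and memory list had 10 of 230 (4.35%, 2.38 to 7.82). Il33, an alarmin cytokine, had a strong member 53.4 kb from the gene, at chr19:29871267-29872425, with 15.2, 14.0 and 15.2 and 14.6 in vehicle, which neither culture held. Il17ra, the receptor for interleukin-17, had 2 of 4, and Cxcl1, S100a8, Stat3, Socs3 and Nfkbia had 1 each. The AP-1 and immediate early list had 9 of 218 (4.13%, 2.19 to 7.66), with 2 each at Jun and Ier3 and 1 each at Fos, Fosl2, Maff, Myc and Ier5. The Jun member 53.3 kb from the gene, at chr4:95105258-95105791, had 8.44, 6.79 and 9.53 and was held by all 6 other lists. The p53 and DNA damage list had 9 of 255 (3.53%), the EGFR list 10 of 343 (2.92%), and the list of wound-activated keratinocyte genes 5 of 175 (2.86%, 1.23 to 6.51). The last list names genes that keratinocytes raise after injury, and its share of members was below that of all genes, with an interval that includes it. Interferon response genes had 0 of 51 (upper bound 7%).

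Polycomb genes were counted because the study includes the PRC1 inhibitor. Genes for Polycomb subunits and H2A deubiquitinases had 5 of 160 (3.12%), and developmental regulators that are known Polycomb targets 6 of 199 (3.02%, 1.39 to 6.42). Among the latter was Hoxd10, whose only merged region, at chr2:74691455-74692634, is a member over its start with 5.86, 5.16 and 5.37 and 7.59 in vehicle. Of all members, 96 (2.89%) were in vehicle and not in PRT4165, and 68 (2.05%) in PRT4165 and not in vehicle. For UVB, 129 members (3.88%) were in UVB and not in wound with UVB, and 32 (0.963%) the other way round. Over all merged regions the same 4 shares were 9.19%, 7.40%, 13.6% and 6.41%, and in regions absent only at 8 weeks 2.53%, 1.03%, 3.22% and 0.907%.

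Marker lists of other cell types had few merged regions. Fibroblast markers had 3 members of 40 regions (7.50%, 2.58 to 19.9), 2 at Dcn, which encodes decorin, and 1 at Col1a1. The Dcn member at chr10:97436565-97437209 had 19.8, 10.5 and 15.5 in the wound lists and 24.3 in vehicle, and lies 42.6 kb from the gene. Endothelial markers had 2 of 72 (at Tek and Pecam1), melanocyte, Merkel and T cell markers 1 each of 43, 33 and 57 (at Sox10, Krt18 and Cd2), and Langerhans and myeloid markers 0 of 30. Cdh5 had no member among 6 merged regions, and Cd3e and Krt20, with 1 merged region each, had none. Col1a2 and Tyr had 0 merged regions, so they could hold no member.

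The 77 members that vehicle lacks (0.0759% of all merged regions) are the ones absent from both lists whose labels name neither a wound nor an active treatment. UVB held 74 of them (96.1%, 89.2 to 98.7), PRT4165 68 (88.3%, 79.3 to 93.7) and wound with UVB 62 (80.5%, 70.3 to 87.8). The cultures held 19 and 17. Their median percentiles were 38.4 at 1 week, 25.2 at 8 weeks and 29.5 after the second wound, lower in each list than those of all members. The strongest lay inside Nalcn, a sodium leak channel gene, at chr14:123470367-123470984, with 16.6, 14.0 and 12.9 in the wound lists and 20.5, 19.3 and 20.1 in PRT4165, UVB and wound with UVB. The next were inside Agap1, a regulator of Arf GTPases (chr1:89663327-89664371, with 14.3, 12.4 and 14.3), and Tmprss11a, a gene of a serine protease (chr5:86421288-86421967, with 10.8, 12.4 and 12). Others by rank lay at Ankfn1, Agtpbp1, Chmp7, Scn8a and Rnf130. Even this remainder was therefore nearly all found in a list of treated epidermis.

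The 6 members held by only 1 other list had peaks in the fewest lists outside the wound course. At Zfp618, a zinc finger gene, the region at chr4:63009867-63010645 had 8.96, 8.76 and 8.96, and 9.27 in vehicle. At Layn, which encodes a hyaluronan receptor, the region at chr9:51076282-51077241 lay 0.688 kb from the start and had 9.12, 8.72 and 11.3, and 6.24 in vehicle. The region near Mmadhc had 11.3, 8.14 and 11.8, and 18.8 in wound with UVB, and that inside Tenm2, a teneurin gene, 12.4, 7.75 and 12.5, and 20.9 in wound with UVB. For 4 of the 6 the only other list was vehicle, and for those at Mmadhc and Tenm2 it was wound with UVB.

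Members also lay over microRNA genes. Of 1005 hairpins in the RefSeq table, 3 were overlapped by a member and 7 lay within 1 kb of one, against 4 and 10 for regions absent only at 8 weeks and 130 and 245 for all merged regions. The mature 3p sequences of 2 of them are shown because each belongs to a seed family, with the seed (bases 2 to 8) in capitals.
miR-193a-3p: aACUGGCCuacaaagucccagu
miR-152-3p: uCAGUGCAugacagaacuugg

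The region over Mir193a, at chr11:79710802-79712141, had 10.5, 7.41 and 10.3 in the wound lists and was held by all 6 others. The region over Mir152, at chr11:96849522-96850676, had 7.18, 7.17 and 7.89, 9.18 in vehicle, and no peak with PRT4165. In the table, miR-193a-3p shares its seed with miR-193b-3p, and miR-152-3p with miR-148a-3p and miR-148b-3p. The third hairpin was that of Mir7668, at 7.97, 6.37 and 8.77. A peak over a hairpin does not measure the microRNA.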

How the data were processed

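ATAC-seq was read from 10 peak lists, 1 per group of 2 libraries, that the authors deposited in narrowPeak form on the mm10 build, per the submitters' processing notes. Their names mark them as conservative peaks passing a test of reproducibility between libraries. The aligner, peak caller and filters were not given in the sources used here. Each deposited peak carries a score (540 or higher in every list), a signal value (the authors' enrichment value, whose scaling is not stated) and a −log10 p value set by the authors, at least 2.00. The lists give no value per library, so the depth is unknown and replicates could not be compared.

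From these files, peaks were merged at 1 bp overlap into 101406 regions, and membership was read from 4 lists. Shares carry Wilson 95% intervals, which cover counting error only, and no p-value was computed. Within-list percentiles rank the highest signal value of a region. Regions were assigned to the protein-coding gene that contains them or whose end lies nearest within 100 kb (RefSeq, GRCm38.p6); listed start sites cover 79.9% of these genes and none on chromosome 18. Genes were named by fixed rules: the 12 with the most members, the 6 with the highest share among genes with at least 6 regions, up to 3 per gene list, and members by their lowest percentile over the wound lists (12 of all members, 10 lacking in vehicle, 5 in all other lists, 8 over promoters). Other genes that are named, such as those in runs of members, were picked with their values in view. The members and the lists were chosen with earlier results of these data known. The merging was checked with bedtools 2.31.1, which gave 3324 of 101406 regions and 3247 in vehicle. The code was also run on altered lists, with the homeostasis peaks taken out of 500 regions held by all 4 wound-course lists. Of these, 500 of 500 became members, and 0 others did. The rule fixes this outcome, so it checks the code and measures no error rate. Python 3.11.15, numpy 2.4.6, pandas 2.3.3, scipy 1.17.1 and matplotlib 3.10.9 were used. Alternatives changed the overlap, the peak strength, the list length, the control list and the distance window.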

Additional observations from a re-analysis of the deposited data

How the results depend on the processing

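The number of members was most sensitive to the control list. With vehicle in place of homeostasis it fell from 3324 to 106 regions on 93 genes; of these, PRT4165 held 86.8%, UVB 95.3%, wound with UVB 84.0%, the control culture 28.3% and the distal culture 23.6%, and 20.8% stood above the median of the 8-week list. With both lists lacking, an alternative chosen after seeing the data, 77 regions on 67 genes remained by construction; PRT4165 held 88.3%, UVB 96.1%, wound with UVB 80.5%, the control culture 24.7% and the distal culture 22.1%, and 18.2% stood above the 8-week median.

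With the strongest 50% of each wound-course list there were 1605 regions on 1303 genes, of which 511 were among the 3324. Vehicle held 99.6%, PRT4165 99.5%, UVB 99.9%, wound with UVB 99.3%, the control culture 60.2% and the distal culture 54.2%; 14.8% lay within 1 kb of a gene end or start site. With the strongest 50% of the wound lists against the whole homeostasis list there were 511 regions on 441 genes, held at 98.8% by vehicle, 98.8% by PRT4165, 99.6% by UVB, 98.6% by wound with UVB, 49.1% by the control culture and 46.2% by the distal culture, with 9% within 1 kb. Under both, 100% stood above the 8-week median by construction.

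With lists of equal length there were 2183 regions, wound with UVB held 96.7%, 35.0% stood above the 8-week median and 9.76% lay within 1 kb. With at least 50% of a region covered, 3423 regions passed, of which 2584 were among the 3324 (77.7% of those and 75.5% of the alternative); vehicle held 96.4%, PRT4165 94.7%, wound with UVB 94.7%, the control culture 44.8% and the distal culture 38.4%, 31.7% stood above the 8-week median and 14.3% lay within 1 kb. Merging only the 4 wound-course lists gave 98.2% in UVB, and a window of 500 bp put 8.12% near a gene. Counts per gene moved as well. With genes assigned within 20 kb, Arhgef28 kept 3 of its 7 members. With the strongest 50% of each wound-course list its count was 1, and those of Sik3, Tiam1 and Zmiz1 were 0. Under that setting the count was 4 for Sash1 and 3 for Septin9, against 5 and 4 before. Apart from what follows by construction, the cause was not tested. The vehicle share was above 96% under each alternative that did not use vehicle as a control. Leaving out a replicate was not possible, since each list pools both libraries. No paired analysis was possible because each list pools both libraries and no test was made.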
